A study of Mus musculus with 8 samples.

Results

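The brains of stressed mice labelled with cerebral amyloid angiopathy (CAA) were compared with the brains of stressed wild-type (WT) mice, in 2 libraries each, over every gene with enough counts to test. Of the 54532 genes in the deposited count table, 17182 passed the filter on low counts and make up the comparison, and 25086 had no count in any of the 8 libraries of the study. The CAA stress mice carried the CAA disease state and underwent chronic restraint stress, in which an animal is repeatedly confined. The WT stress mice underwent the same restraint and carried no disease label. The other groups were CAA mock and WT mock, again 2 libraries each, whose animals were labelled as mock-treated. All mice were perfused with PBS, which washes blood out of the vessels, and total RNA was taken from brain. The labels give no strain, transgene, promoter, age or sex, so the CAA label is all that is known of the model, and the wording leaves unclear which part of the brain was used. The labels do not say whether the libraries of a group came from separate animals. Sex-linked counts, given below, differ within CAA stress and within WT mock, so the libraries of those groups came from different animals, while for WT stress and CAA mock the spread between libraries, which p-values measure, may be technical.

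CAA is the deposition of amyloid-beta, a fragment of the amyloid precursor protein, in the walls of cerebral arteries and capillaries. The vessel wall there is built of endothelium, a basement membrane of laminins, type IV collagens and proteoglycans, smooth muscle cells or pericytes, and the endfeet of astrocytes. The study set out to look at chronic stress, CAA and neutrophil extracellular traps, which neutrophils cast out as webs of DNA, histones and granule enzymes. The question of the comparison is which genes differ between the genotypes once both have been stressed.

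Libraries held 17275201 to 18894657 counts, and each is named below by its group and replicate number. Sex differed within a group: CAA stress 1 had 3340 counts of Xist, the RNA that coats the inactive X chromosome, and 0 counts of 4 Y-linked genes, whereas CAA stress 2, WT stress 1 and WT stress 2 had 2 to 4 Xist counts and 2340 to 2792 Y-linked counts. WT mock was mixed as well: WT mock 1 had 4575 Xist and 0 Y-linked counts, against 24 Xist and 2833 Y-linked counts in WT mock 2. Neither CAA mock library had an Xist count, and they had 2260 and 2685 Y-linked counts. Brain markers were present in every library, neurons at 4797 and 5644 summed CPM (counts scaled to library size, with factors from the trimmed mean of M values) in CAA stress and 6439 and 6263 in WT stress. The tissue was uneven. The mean log2 level of 11 olfactory bulb genes, relative to the mean of the 8 libraries, was -0.49 and 0.89 in CAA stress 1 and 2 against 1.07 and 1.17 in WT stress 1 and 2. That of 18 choroid plexus genes was 1.55 and -0.85 in CAA stress against -0.95 and 1.86 in WT stress, so that 1 library of each genotype was rich in it. Red cell markers summed to 16.7 and 2.25 CPM in CAA stress and 118.5 and 10.7 CPM in WT stress, with WT stress 1 apart from the rest.

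**Figure D1:**
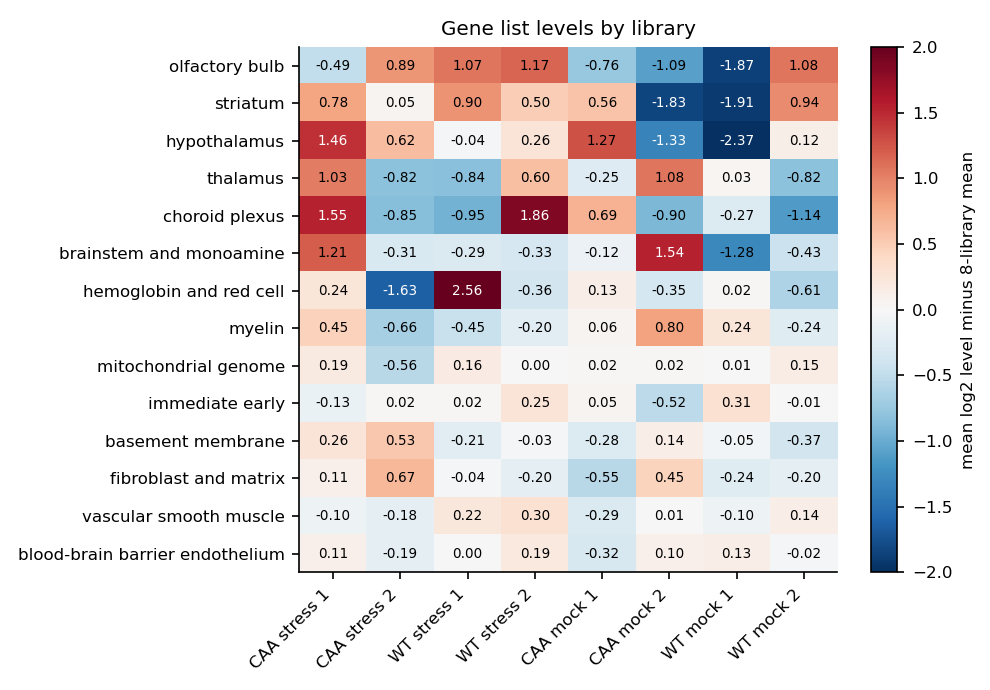
Mean log2 level of the tested members of 14 gene lists in each library (columns), minus the mean over the 8 libraries; the colours saturate at the ends of the scale. Region and blood lists differ between replicates of 1 genotype, as for choroid plexus (1.55 and -0.85 in CAA stress), by more than the vascular lists in the lower rows do between genotypes.

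Transcript base composition ran with the comparison and has to be read beside every gene below. Across 17163 genes with a GENCODE transcript, the log2 fold change of CAA stress over WT stress had a Spearman correlation of 0.55 with the GC content of the longest transcript, against 0.087 for CAA mock over WT mock. Genes are not independent replicates, so these are descriptions. Median log2 fold change was -0.31 in the decile lowest in GC (median 39.2% GC) and 0.37 in the highest (59.7% GC). In the highest decile 367 genes had an unadjusted p under 0.05 and a higher level in CAA stress and 0 a lower one, and in the lowest decile 2 were higher and 306 lower. Single libraries show where it sits: the highest minus the lowest decile, as a deviation from the 8-library mean, was 0.42 and 0.44 in CAA stress 1 and 2 and -0.43 and -0.049 in WT stress 1 and 2. All 4 pairings of a CAA stress with a WT stress library had a positive gap, 0.85 and 0.85 against WT stress 1 and 0.47 and 0.49 against WT stress 2. Length had little relation to the fold change (Spearman -0.062). The cause was not tested, and with 2 libraries a group a property of the libraries and one of the genotypes cannot be told apart. Values given as "GC-adjusted" come from a fit with an offset per library that removes this curve (Spearman 0.025 after it).

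**Figure D2:**
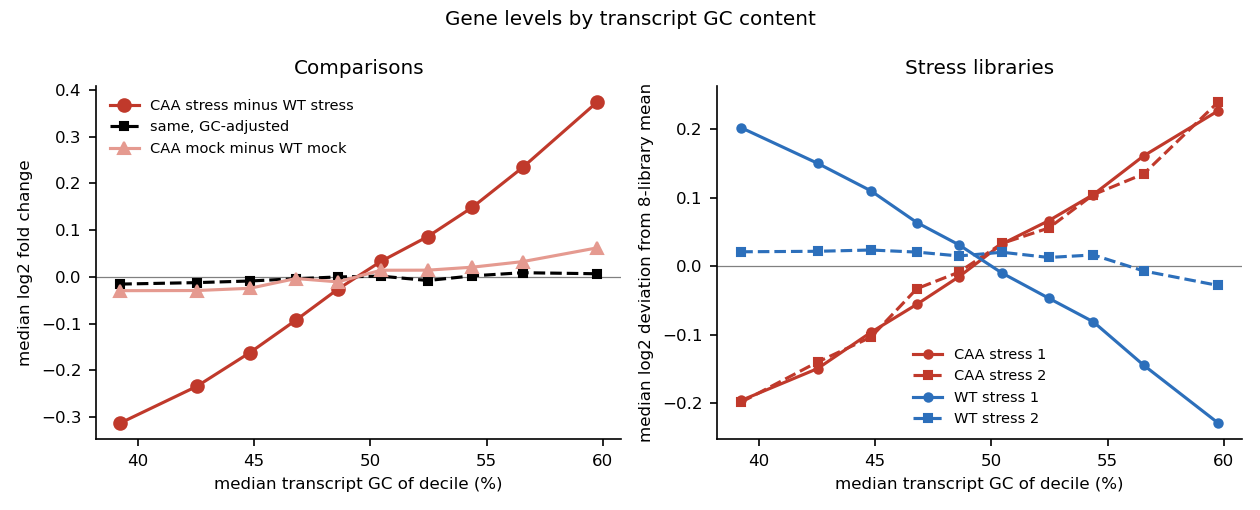
Left, median log2 fold change of genes in 10 equal groups by transcript GC content, for CAA stress over WT stress, the same after the GC offset, and CAA mock over WT mock. Right, the median log2 deviation of each stress library from the 8-library mean. The stress comparison climbs from -0.31 to 0.37, the adjusted one stays within 0.02 of 0, and WT stress 1 slopes opposite to both CAA stress libraries.

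Coding sequences of genes at the head of the ranking illustrate this range of GC content. Shown are the middle 90 coding bases of 2 collagen genes rich in GC among the 12 genes of smallest p that were higher in CAA stress, and of the 3 poorest in GC among the 12 that were lower, leaving out mitochondrial genes, the chromosome 1 genes described next and Ptpn2, whose sequence was not used here. The set was chosen after the values were seen and by transcript GC, so a contrast in GC follows from the choice. Sequences are from GENCODE vM21 transcripts (GRCm38), 5′ to 3′, with G and C in capitals. The higher genes are the collagen chains Col11a2 (chr17:34039437-34066685, plus strand) and Col9a2 (chr4:121039385-121055322, plus strand), with 62.9% and 62.7% GC over the transcript.
Col11a2: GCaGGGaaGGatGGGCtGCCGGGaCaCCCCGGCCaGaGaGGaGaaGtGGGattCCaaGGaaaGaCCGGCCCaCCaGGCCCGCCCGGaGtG
Col9a2: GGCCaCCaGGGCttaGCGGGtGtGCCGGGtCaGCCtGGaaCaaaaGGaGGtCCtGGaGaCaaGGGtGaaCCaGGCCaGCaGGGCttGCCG
The lower genes are the zinc-finger genes Zfp944 (chr17:22337989-22361400, minus strand) and Zfp386 (chr12:116047724-116063360, plus strand), and Tmem267 (chr13:119488039-119611059, plus strand), a predicted membrane protein, with 38.7%, 40.5% and 42.0% GC over the transcript.
Zfp944: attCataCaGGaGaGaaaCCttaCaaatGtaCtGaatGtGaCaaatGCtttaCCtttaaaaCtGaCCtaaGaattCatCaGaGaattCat
Zfp386: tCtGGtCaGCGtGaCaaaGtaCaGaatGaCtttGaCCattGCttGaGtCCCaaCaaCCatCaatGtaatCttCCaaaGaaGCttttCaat
Tmem267: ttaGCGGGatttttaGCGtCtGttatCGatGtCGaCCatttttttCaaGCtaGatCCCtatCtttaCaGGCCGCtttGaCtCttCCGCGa
GC content of the stretches was 68.9% and 65.6% in Col11a2 and Col9a2 and 32.2%, 40% and 44.4% in Zfp944, Zfp386 and Tmem267. Over the whole coding sequence it was 64.7% and 65.3%, and 35.4%, 39.7% and 49.6%, in the same order, so Tmem267 was less poor in GC there.

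Wdfy1 rose and Ngef fell in the stressed CAA brains, and these were the only genes past an adjusted p of 0.05 in edgeR's quasi-likelihood test (2 of 17182 genes, 0.0116%). Wdfy1, whose product binds endosomal membranes and acts as an adaptor in Toll-like receptor signalling, had 54.7 and 47.3 CPM in CAA stress 1 and 2 against 12.5 and 9.87 CPM in WT stress 1 and 2. The libraries of the 2 genotypes did not overlap, and the lowest CAA value was well above the highest WT value. The log2 fold change was 2.19 ± 0.20 (SE, n = 2 each), with an adjusted p of 0.00349 by edgeR with Benjamini-Hochberg adjustment. Ngef, or ephexin-1, a guanine nucleotide exchange factor that acts downstream of EphA receptors in neurons, had 67.7 and 70.4 CPM in CAA stress against 319.9 and 271 CPM in WT stress. The fitted change was -2.10 ± 0.24 on the log2 scale (SE, n = 2 each; adjusted p = 0.0221 in edgeR), again without overlap. The GC offset left both called, at 2.31 for Wdfy1 and -2.28 for Ngef, and called no other gene (0.0116%).

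Neither call held in limma on log2 FPKM, nor without WT stress 1 or without WT stress 2, although the fold changes stayed between 1.70 and 2.37 for Wdfy1 and between -1.97 and -2.28 for Ngef over every alternative run. Ngef also missed the threshold with a term for sex (adjusted p = 0.139 in edgeR) and without either CAA stress library.

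The mock comparison, which shares no library with this one, had the same 2 calls (0.0116% of genes). Wdfy1 was at 55.1 and 65.7 CPM in CAA mock against 10.3 and 12.3 CPM in WT mock, a log2 fold change of 2.42, and Ngef at 70.9 and 40.4 CPM in CAA mock against 257 and 291 CPM in WT mock, a log2 fold change of -2.30. The difference between the stress and mock fold changes was -0.23 ± 0.27 for Wdfy1 and 0.20 ± 0.32 for Ngef (SE), with an adjusted p of 0.995 for each in edgeR's test of the interaction.

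Both genes lie on the minus strand of chromosome 1, Wdfy1 at chr1:79702262-79776143 and Ngef at chr1:87476834-87573870 in the coordinates of the deposited mm10 table, 7700691 bases apart with 44 tested genes between them. From 5000000 bases before Wdfy1 to as far past Ngef, the other 123 tested genes had 0 calls, 4 higher and 5 lower at an unadjusted p under 0.05 (background 4.14% and 4.09%), Neu2 among the lower, and a median log2 fold change of 0.03. Neu2, a cytosolic sialidase gene on the plus strand at chr1:87509889-87597845, overlaps Ngef over 63982 bases. It had 1.80 and 0.911 CPM in CAA stress against 6.02 and 4.41 CPM in WT stress, a log2 fold change of -1.94 that did not pass (adjusted p = 0.579, edgeR). Neu2 counts were 2.66% and 1.29% of the Ngef counts in CAA stress and 1.88% and 1.63% in WT stress, with exact 95% intervals, for counting error only, of 1.82 to 3.75% and 0.751 to 2.08% in CAA stress and 1.54 to 2.27% and 1.29 to 2.03% in WT stress. The labels do not say whether counting used strand, so reads from where the genes overlap cannot be told apart. Which exons overlap was not examined.

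**Figure D3:**
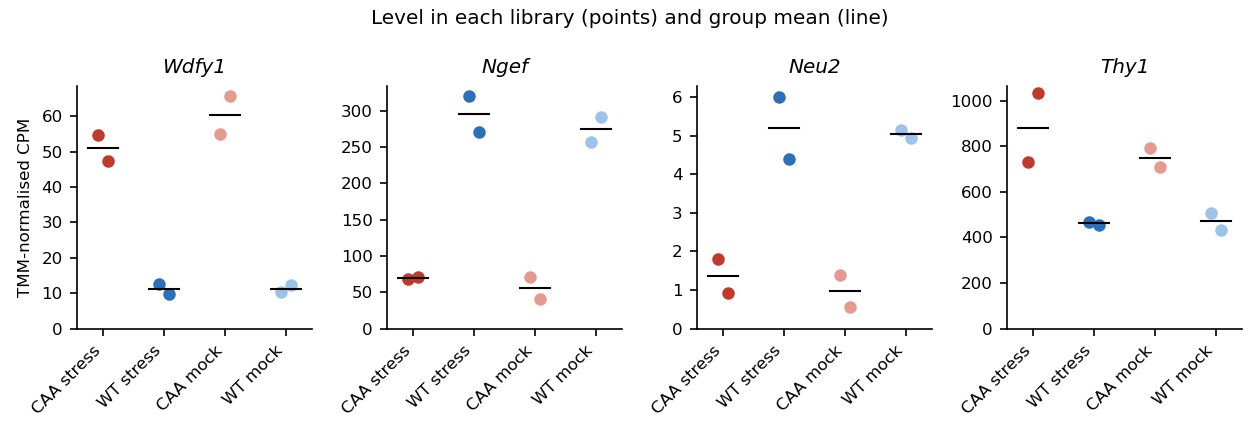
TMM-normalised CPM of Wdfy1, Ngef, Neu2 and Thy1 in each library (points) with the group mean (line), groups from left to right CAA stress, WT stress, CAA mock and WT mock. Wdfy1 and Thy1 lie higher and Ngef and Neu2 lower in both CAA groups, without overlap.

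Below the threshold, 1413 genes (8.22%) had an unadjusted p under 0.05 where 859 would be expected with no difference, 711 of them higher in CAA stress (4.14%) and 702 lower (4.09%). The GC offset brought this to 541 genes, 291 higher (1.69%) and 250 lower (1.46%). The CAA stress libraries lay wholly above the WT stress libraries in 3342 genes (19.5%) and wholly below in 3504 (20.4%). In the mock comparison 688 genes (4%) had an unadjusted p under 0.05. The interaction had 0 calls in edgeR (0%), with 595 genes (3.46%) under an unadjusted p of 0.05 and 4 genes called by DESeq2, so by edgeR no difference between genotypes was shown to depend on stress. Of the 711 higher genes 521 (73.3%) had a positive fold change in mock as well, and of the 702 lower genes 459 (65.4%) a negative one, against 56.8% with matching signs over all genes. For the same 711 and 702 genes, with both comparisons GC-adjusted, the shares with matching signs were 66.1% and 58.0%, against 56.3% over all genes. A single gene's exact permutation test of 2 against 2 libraries cannot go below p = 0.333.

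Thy1, a glycoprotein of the neuronal surface, led the genes that missed the threshold. It had 729 and 1034 CPM in CAA stress against 466 and 457 CPM in WT stress, 0.93 ± 0.18 on the log2 scale (adjusted p = 0.579, edgeR) and 0.74 after the GC offset. DESeq2 called it (adjusted p = 0.00655). In mock it had 791 and 709 CPM in CAA against 505 and 434 CPM in WT.

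The other genes of smallest p with higher values in CAA stress included secreted and matrix proteins. They had log2 fold changes of 0.81 to 1.71 and an adjusted p of 0.579 each in edgeR. Nxph4, a neurexophilin that binds neurexins, had 9.87 and 9.86 CPM in CAA stress against 4.32 and 3.75 CPM in WT stress. Adamts2, a protease that trims procollagens, had 13 and 10.7 CPM in CAA stress against 4.32 and 6.17 CPM in WT stress, and its 1.17 became 1.03 under the GC offset. Grin2d, the GluN2D subunit of NMDA receptors, had 25.4 and 23.5 CPM in CAA stress against 11.4 and 14.9 CPM in WT stress, and its 0.89 became 0.33. Col9a2 and Col11a2 had 1.19 and 1.3, and 0.71 and 0.84 under the offset. Ltbp3, which holds latent TGF-beta in the matrix, Jun, Ano8, Chadl and Ccnjl complete the set, at 0.81, 0.87, 0.84, 0.98 and 1.71.

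Genes of smallest p with lower values in CAA stress included mitochondrial tRNAs and a ribosomal protein. The mitochondrial cysteine tRNA gene mt-Tc had 38.4 and 34.0 CPM in CAA stress against 89.3 and 71.1 CPM in WT stress, a log2 fold change of -1.15 that became -0.80 under the offset and that DESeq2 called (adjusted p = 0.00655). Calm2, 1 of the calmodulin genes, had 1531 and 1345 CPM in CAA stress against 2647 and 2044 CPM in WT stress (-0.71, offset -0.49). Rps27, a small-subunit ribosomal protein gene with near-identical copies and therefore uncertain, had 113.6 and 83.0 CPM in CAA stress against 179 and 185 CPM in WT stress. The protein tyrosine phosphatase Ptpn2, the adenosine deaminase-like Adal, Tmem267, Zfp944, Zfp386 and the leucine tRNA gene mt-Tl1 were lower by 0.74, 0.83, 1.25, 0.80, 0.81 and 0.92 on the log2 scale. Under the offset Ptpn2, Zfp944 and Zfp386 had -0.45, -0.48 and -0.54, and Adal, Tmem267 and mt-Tl1 -0.67, -1.01 and -0.73.

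Ccl2, the monocyte-attracting chemokine, had 1 and 1 counts in CAA stress against 75 and 11 counts in WT stress, a WT to CAA ratio of 43.7 with a counting interval of 11.7 to 367 that covers counting error only. Most of the WT counts came from WT stress 1. That library, which also carried the red cell signal, held 90 counts of Cxcl1, 28 of Cxcl2, 31 of Ccl12 and 22 of Il1b, against at most 7, 0, 8 and 5 in any of the other 7. Whether blood or an inflamed region moved with Ccl2 was not tested.

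**Figure D4:**
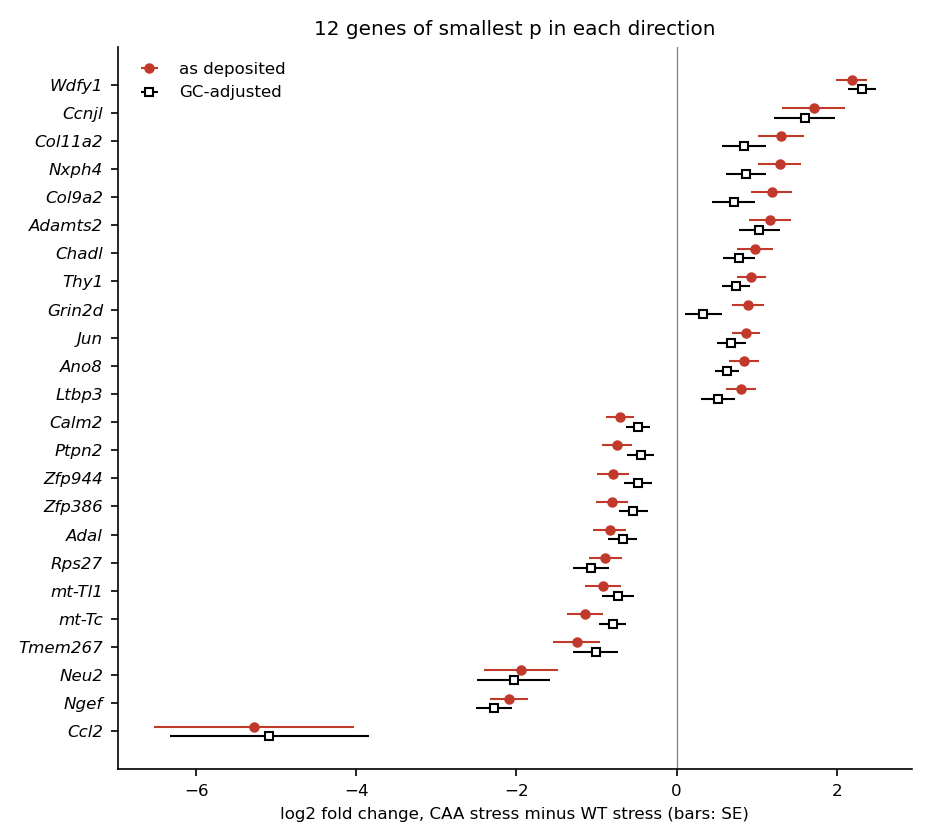
Log2 fold change of CAA stress over WT stress (points, bars SE) for the 12 genes of smallest p in each direction, from the counts as deposited (circles) and after the GC offset (squares). Wdfy1 and Ngef are the called genes and stay in place, while Grin2d moves from 0.89 to 0.33.

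Among genes with an unadjusted p under 0.05 and the largest fold changes, the type I collagen chain Col1a1 had 7.31 and 28.1 CPM in CAA stress against 4.38 and 2.37 CPM in WT stress (2.39, adjusted p = 0.579 in edgeR, called by DESeq2). Its transcript has 58.9% GC, and the values in this paragraph are without the GC offset. The matrix protein tenascin-X, Tnxb, had 3.49 and 3.80 CPM in CAA stress against 0.328 and 1.27 CPM in WT stress. Otp, a homeobox gene of hypothalamic neurons, had 6.05 and 5.30 CPM in CAA stress against 1.37 and 1.49 CPM in WT stress and Lhx5, another developmental homeobox gene, 1.96 and 1.55 CPM in CAA stress against 0.328 and 0.441 CPM in WT stress. The meningeal and mesothelial genes Foxc2 and Msln and the stress-response gene Nupr1l were higher in CAA stress at levels under 4 CPM. On the lower side stood Trdn, Stoml3 and the tRNA genes mt-Tl2, mt-Tr and mt-Ts2, with values of 0.273 to 1.23 CPM in CAA stress and 1.32 to 4.16 CPM in WT stress.

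The lists that follow are described by counts and medians. Over all genes tested 50.7% had a higher value in CAA stress, and the median log2 fold change was 0.0055 (-0.0027 GC-adjusted). Of the 49 lists, 32 had a positive median, and 14 moved by more than 0.1 under the GC offset. No list member other than Wdfy1 and Ngef passed the threshold, and in bulk tissue fewer cells of a type and less RNA per cell cannot be told apart.

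Of the amyloid precursor and its processing enzymes, 12 of 19 genes were higher and 7 lower, with a median of 0.05 (0.01 GC-adjusted). App itself had 1222 and 1337 CPM in CAA stress against 1166 and 1133 CPM in WT stress (0.16 ± 0.15, adjusted p = 0.784, edgeR), and the beta-secretase gene Bace1 had a log2 fold change of -0.10. The prion protein gene Prnp was at 810 and 814 CPM in CAA stress against 775 and 797 CPM in WT stress. Aplp1, an App homologue, had 0.33 and -0.0011 after the GC offset. Among 17 tested amyloid clearance genes 12 were higher with a median of 0.19, and 11 with a median of 0.02 after the GC offset. Under an unadjusted p of 0.05, 3 were higher (background 4.14%) and 1 lower (4.09%). Without overlap, 3 lay above (19.5%) and 2 below (20.4%). Leaving out WT stress 1 gave 8 higher and a median of -0.026. Apoe, the main lipid carrier of the brain, had 2590 and 1655 CPM in CAA stress against 1090 and 1247 CPM in WT stress (0.86, offset 0.53). Lrp1, an endocytic receptor that carries amyloid-beta out of brain, had 343 and 424 CPM in CAA stress against 231 and 259 CPM in WT stress (0.65, offset 0.37).

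Basement membrane genes had higher values in CAA stress in 14 of 15 cases, with 5 at an unadjusted p under 0.05 (background 4.14%) and 9 without overlap (19.5%). Their median log2 fold change was 0.51, and 0.32 after the GC offset, which left 14 higher and 2 under 0.05; the median transcript of the list has 54.6% GC. The laminin chain gene Lamb2 had 27.0 and 34.5 CPM in CAA stress against 11.6 and 18.4 CPM in WT stress (1.04, offset 0.75). Perlecan, Hspg2, had 5.72 and 11.8 CPM in CAA stress against 3.61 and 3.97 CPM in WT stress (1.21, offset 0.82). Values for Col4a2, a chain of the type IV collagen network, were 29.5 and 44.5 CPM in CAA stress against 24.3 and 20.9 CPM in WT stress. Agrn and Lama2 had 0.53 and 0.58. Without CAA stress 2, where most of these genes peaked, 12 of 15 were still higher with a median of 0.39. In mock the median was 0.08 with 11 of 15 higher.

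Fibroblast and fibrillar matrix genes were higher in 18 of 20 cases, with a median of 0.49 (0.34 GC-adjusted), 3 under an unadjusted p of 0.05 (background 4.14%) and 9 without overlap (19.5%). Fbln1, a fibulin of elastic matrix, had 14.6 and 19.2 CPM in CAA stress against 7.61 and 9.37 CPM in WT stress. Col1a2 had 17.4 and 34.0 CPM in CAA stress against 10.8 and 11.1 CPM in WT stress. CAA stress 2 was the highest library for Col1a1, Col1a2 and Fbln1, and without it the median was 0.19, with 15 of 20 higher. In mock the median was 0.06, with 11 of 20 higher.

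Genes of vascular smooth muscle ran the other way: 10 of 12 had lower values in CAA stress, 6 without overlap (background 20.4%) and 2 at an unadjusted p under 0.05 (4.09%), with a median of -0.27 (-0.30 GC-adjusted). Acta2, smooth muscle actin, had 13.4 and 11.3 CPM in CAA stress against 20.0 and 22.8 CPM in WT stress (-0.79 ± 0.28, edgeR adjusted p = 0.579), and the offset left it at -0.79. Tagln, which binds actin in contractile cells, had 2 and 2 counts in CAA stress against 13 and 12 counts in WT stress, a WT to CAA ratio of 6.35 with a counting interval of 2.19 to 25.1. Cnn1, Des, Cald1 and Myl9 also did not overlap, at -1.05, -0.63, -0.42 and -0.36. Myh11, the smooth muscle myosin heavy chain, was at 9.05 and 8.84 CPM in CAA stress against 9.20 and 8.87 CPM in WT stress. Without CAA stress 2 the median was -0.33 with 8 of 12 lower. With a term for sex 8 of 12 were lower, with a median of -0.14. In mock 5 of 12 were higher and the median was -0.15.

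Blood-brain barrier endothelial genes were lower in 15 of 21 cases, 7 without overlap (background 20.4%), with a median of -0.21 (-0.17 GC-adjusted). The median was -0.047 without CAA stress 2 and -0.069 without WT stress 2, with 13 and 12 of 21 lower. Cldn5, the main claudin of the barrier, had 19.9 and 16.8 CPM in CAA stress against 21.7 and 24.3 CPM in WT stress (-0.33, offset -0.70). Vwf, von Willebrand factor, was the 1 of 21 members under an unadjusted p of 0.05 (background 4.14% higher and 4.09% lower). It had 26.6 and 19.2 CPM in CAA stress against 10.7 and 14.2 CPM in WT stress. After the GC offset 0 members were higher and 1 was lower at that p (background 1.69% and 1.46%). Pericyte genes had a median of 0.18 (0.08 GC-adjusted), with Notch3 at 0.70 and Anpep at 0.95 above the others. Of the 12 members 8 were higher and 4 lower, and 7 and 5 after the GC offset. Without overlap, 3 lay above (background 19.5%) and 1 below (20.4%). Astrocyte endfoot genes were higher in 9 of 10 cases with a median of 0.12 and overlap in all but 1, which lay above (background 19.5%). Without CAA stress 1, the female library, 2 of 10 were higher with a median of -0.16, and with a term for sex 4 of 10 with a median of -0.038.

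**Figure D5:**
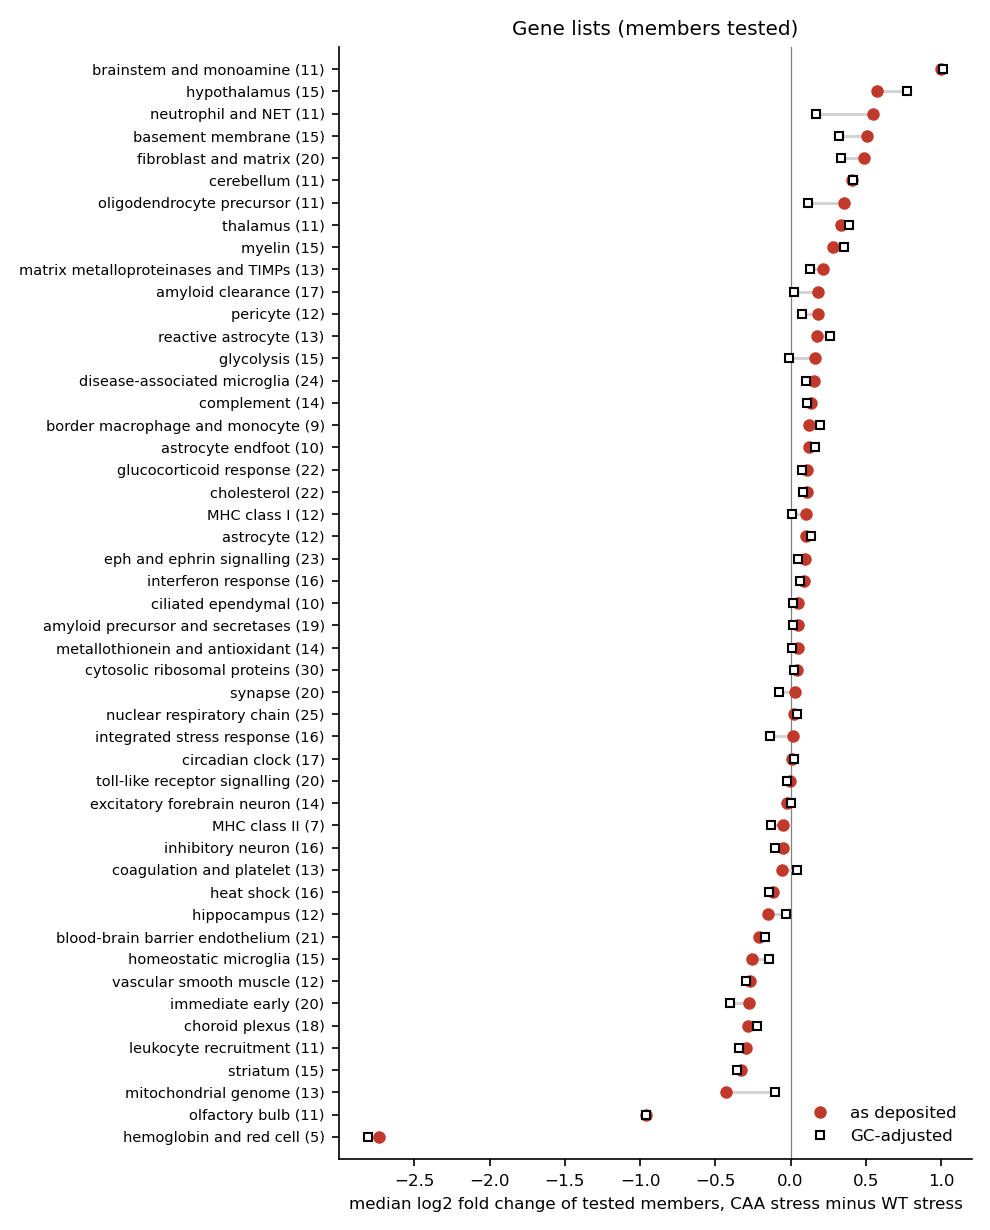
Median log2 fold change of CAA stress over WT stress for the tested members of 49 gene lists (number in brackets), from the counts as deposited (circles) and after the GC offset (squares). Basement membrane and matrix lists keep a positive median and smooth muscle a negative one, while the mitochondrial genome moves from -0.43 to -0.10.

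Immediate early genes, which neurons switch on within minutes of activity, were lower in 15 of 20 cases with a median of -0.28, and in 18 of 20 with a median of -0.40 after the GC offset. Under an unadjusted p of 0.05, 5 were lower (background 4.09%) and 3 higher (4.14%). Egr1 had 89.2 and 109.6 CPM in CAA stress against 137.5 and 145 CPM in WT stress (-0.51, offset -0.76). Fos had 11.3 and 10.5 CPM in CAA stress against 13.2 and 19.7 CPM in WT stress, and the nuclear receptors Nr4a2 and Nr4a3 both had -0.69. The 3 higher members were Jun and Jund, which pair with Fos in AP-1, and Ier5, a regulator of the heat shock response. Jun had 52.9 and 66.9 CPM in CAA stress against 35.6 and 30.1 CPM in WT stress (0.87, offset 0.68). Jund, at 67.1% GC, had 0.61, and -0.03 after the offset. Without WT stress 2 the median of the list was 0.03 with 11 of 20 higher, so its direction rests on that library. The mock median was -0.56, also with 5 of 20 higher.

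Genes that glucocorticoids induce were higher in 15 of 22 cases with a median of 0.11 (0.07 GC-adjusted). Their direction rests on single libraries: without CAA stress 1, 9 of 22 were higher with a median of -0.072, without WT stress 2, 11 of 22 with -0.0056, and with a term for sex 10 of 22 with -0.016. Fkbp5, a chaperone that dampens the glucocorticoid receptor, had 62.0 and 60.2 CPM in CAA stress against 56.0 and 53.7 CPM in WT stress (0.16 ± 0.20). Ddit4 and Klf15 had 0.55 and 0.56, both highest in CAA stress 1. Of 17 clock genes 9 were higher, with a median of 0.0071. Dbp, an output gene of the clock, had 110 and 63.2 CPM in CAA stress against 31.1 and 37.3 CPM in WT stress (1.34, offset 0.92, called by DESeq2 at an adjusted p of 0.0442). Its activators Arntl and Clock had -0.52 and -0.44.

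Neutrophil genes were near the limit of detection. Of 22 genes of granules and extracellular traps, 11 reached enough counts, 7 of them higher, with a median of 0.55 (0.17 GC-adjusted, 0.079 without CAA stress 1, 0.17 without WT stress 2 and 0.036 with a term for sex). S100a8 and S100a9, the subunits of calprotectin, had 32 and 8 counts and 31 and 9 counts in CAA stress 1 and 2 against 13 and 5 counts and 10 and 11 counts in WT stress 1 and 2, so the genotypes overlapped. Myeloperoxidase, Mpo, had 2 and 3 counts in CAA stress and 0 and 0 in WT stress, and Padi4, the enzyme that citrullinates histones in traps, 2 and 0 counts in CAA stress and 0 and 0 in WT stress, too few to test and not distinguishable at this depth from CAA mock (1 and 6, and 0 and 0) or WT mock (2 and 5, and 2 and 0). Padi2, a family member of oligodendrocytes, had 44.5 and 32.6 CPM in CAA stress against 16.0 and 24.3 CPM in WT stress (0.94). Of the leukocyte recruitment genes 7 of 11 were lower, among them Cxcl5 and Icam1 at -1.66 and -0.69. The median was -0.30, and 0.099 with 5 of 11 lower without WT stress 1, the library of the chemokine and red cell counts.

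Of the disease-associated microglial genes 16 of 24 had higher values, with a median of 0.15 (0.11 GC-adjusted), against 22 of 24 and 0.38 in mock. Without CAA stress 1 the stress median was -0.0044, with 12 of 24 higher. Clec7a, a lectin receptor of amyloid-responsive microglia, had 2 and 14 counts in CAA stress against 9 and 7 counts in WT stress, and 17 and 39 counts in CAA mock against 0 and 4 counts in WT mock. Its interaction of -3.80 ± 1.51 did not pass (adjusted p = 0.995, edgeR). Itgax and Cst7 had 5 and 12 counts and 0 and 29 counts in CAA stress against 5 and 1 counts and 8 and 6 counts in WT stress. Trem2, the receptor that drives this state, was at 19.6 and 17 CPM in CAA stress against 17.4 and 13 CPM in WT stress. Homeostatic microglial genes were lower in 10 of 15 cases with a median of -0.26 (-0.14 GC-adjusted, -0.033 without CAA stress 2 and -0.066 without WT stress 1), led by P2ry13 at 6.16 and 4.34 CPM in CAA stress against 10.4 and 7.66 CPM in WT stress.

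Astrocyte and complement genes are given singly and as lists. Gfap, the intermediate filament of reactive astrocytes, had 317 and 251 CPM in CAA stress against 162 and 189 CPM in WT stress (0.69 ± 0.30, edgeR adjusted p = 0.599, offset 0.52), and 1.03 in mock. The complement component C4b had 25.5 and 36.6 CPM in CAA stress against 20.5 and 15.9 CPM in WT stress (0.77, offset 0.60). Mt3, a metallothionein of brain, had 250.9 and 145 CPM in CAA stress against 104 and 100.4 CPM in WT stress (0.95, offset 0.49). Of 12 astrocyte genes 9 were higher, with Fgfr3 at 0.76, but 2 of 12 without CAA stress 1, 5 of 12 without WT stress 2 and 4 of 12 with a term for sex, with medians of -0.25, -0.039 and -0.032.

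Myelin genes were higher in 14 of 15 cases with a median of 0.28, but every one overlapped (background without overlap 19.5% above and 20.4% below). Mbp, myelin basic protein, had 8187 and 3407 CPM in CAA stress against 2782 and 4717 CPM in WT stress. Without CAA stress 1 the median was -0.43, with 1 of 15 higher, and with a term for sex -0.26, with 5 of 15 higher. Oligodendrocyte precursor genes had a median of 0.36 (0.12 GC-adjusted). Neu4, a sialidase of this lineage, had 15.9 and 14.5 CPM in CAA stress against 7.22 and 10.5 CPM in WT stress (0.78, offset 0.77).

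Of the 13 protein-coding genes of the mitochondrial genome, 10 had lower values in CAA stress, 8 without overlap (background 20.4%), and 7 had an unadjusted p under 0.05 (4.09%). The median was -0.43, and the offset brought it to -0.10 with 0 under 0.05; the list is the poorest in GC, at 37.1%. Of the 3 higher members 1 did not overlap (background 19.5%). The mean level of the list, relative to the 8-library mean, was 0.19 and -0.56 in CAA stress 1 and 2. It was 0.16 and 0.0044 in WT stress 1 and 2, so the genotypes overlapped in that mean. In mock the median was -0.035, with 4 of 13 higher. The mitochondrial share of counts was 7.89% and 6.10% in CAA stress against 9.74% and 8.93% in WT stress. mt-Nd1, a subunit of complex I, had 9372 and 6770 CPM in CAA stress against 12841 and 11574 CPM in WT stress. Without CAA stress 2 the median was -0.18 and without WT stress 1 it was -0.36, in both cases with 9 of 13 lower. Nuclear genes of the respiratory chain, at 48.1% GC, had a median of 0.02.

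Glycolytic enzymes were higher in 13 of 15 cases with a median of 0.16, and in 7 of 15 with a median of -0.0098 after the GC offset. Cytosolic ribosomal proteins had a median of 0.04 and heat shock genes -0.12, with Hspa8 at -0.53. Among 23 Eph and ephrin genes, Ngef included, Ephb2 had 0.63 and Epha4 -0.20, and the median was 0.10. The 20 tested Toll-like receptor genes, Wdfy1 included, had 10 higher and a median of -0.0040, with Tlr9 at 1.44 and Irak4 at 1.12. Excitatory and inhibitory neuron lists had medians of -0.02 and -0.05, and Nr2f2, a transcription factor of some interneurons, had 24.3 and 20.0 CPM in CAA stress against 12.2 and 9.76 CPM in WT stress (1.02, offset 1.15).

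Region lists also differed. Olfactory bulb genes had a median of -0.96 with 8 of 11 lower, and both CAA stress libraries lay below both WT stress libraries in mean level. With a term for sex that median was -0.14, and without CAA stress 2 it was -2.16. The sex term is set by the female libraries, CAA stress 1 and WT mock 1. Both were lower in olfactory bulb genes than the other library of their group (-0.49 against 0.89, and -1.87 against 1.08). Sex and tissue content cannot be told apart in that term. Hypothalamic genes had a median of 0.57 with 12 of 15 higher, both CAA stress libraries above both WT stress libraries in mean level. It was 0.22 to 1.28 with a stress library left out. Brainstem and monoamine genes had 1.0, and -0.0019 without CAA stress 1, which alone of the stress libraries stood above the 8-library mean (1.21, against -0.31 in CAA stress 2 and -0.29 and -0.33 in WT stress). Hemoglobin and red cell genes had a median of -2.73 in 5 tested members. The beta-globin gene Hbb-bs had 150 and 17 counts in CAA stress against 1020 and 83 counts in WT stress, so the difference rested on WT stress 1. The choroid plexus list had a median of -0.28 and overlapped in all 18 members (background without overlap 19.5% above and 20.4% below).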

How the data were processed

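RNA was sequenced from brain in 8 libraries (CAA stress, WT stress, CAA mock and WT mock, 2 each, grouped by title). The authors deposited raw counts per gene; the submitters' processing notes name HISAT2 2.0.5, the counter featureCounts 1.5.0-p3 and mm10. A deposited table of FPKM, made by the authors, served 1 alternative; its library denominators equal DESeq2's robust sizes (ratio 1). How multiple matches or strand were counted is not stated there.

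Counts were tested with edgeR 4.0.16 (R 4.3.3): filterByExpr (minimum count 10, minimum total 15), TMM, robust quasi-likelihood on the 4 group means over 8 libraries (4 residual degrees of freedom, biological coefficient of variation 0.206), two-sided, Benjamini-Hochberg over 17182 genes, threshold 0.05. An SE is the absolute log2 fold change divided by the square root of the F statistic of that test. It rests on a spread estimated from all 8 libraries and shared in part across genes, not on the 2 libraries of a group alone. The strategy was tested on simulated counts with known changes. These held no differences of tissue or sex, so its error rate under such differences was not tested. GC content came from the longest GENCODE vM21 transcript; the GC offset is a lowess curve per library (span 0.2) and was added after the data were seen, as were the crossed replicate block in mock and the list values by setting. No stress libraries agreed within sampling noise (chi-square over its degrees of freedom, 18.6 to 45.6). By that measure CAA stress 1 and 2 differed more from each other (35.4) than from WT stress 2 (26.0 and 25.7). They differed less from each other than from WT stress 1 (42.9 and 45.6). Genes were named by a rule: those past the threshold, the 12 of smallest unadjusted p and the 8 of largest fold change in each direction (mean at least 1 CPM, no overlap, no clone symbol), 2 to 4 members of each list, chromosome 1 neighbours, and the genes of the study's subject; other list members were picked with their values in view, and some genes and 1 sequence are not reported here. The genes and lists were chosen with earlier results of these data known. DESeq2 1.42.0 and limma 3.58.1 served alternatives.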

Additional observations from a re-analysis of the deposited data

How the results depend on the processing

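With 2 called genes as the value from the counts as deposited, the number of calls for CAA stress over WT stress was 120 with no filter on low counts, 9 with DESeq2, 0 with limma on log2 FPKM (pseudocount 1 or 0.1), 1 with a term for sex and 0 to 2 with a library left out. The interaction, at 0, had 17, 4 and, leaving out libraries, 0 to 1 calls, and the mock comparison, at 2, had 82, 15, 1, 7 and 1 to 3, in the settings just named. With a replicate block the stress calls stayed at 2; same-numbered stress libraries did not deviate together (correlation -0.00036), and a crossed block in mock (correlation -0.27) gave 2 calls.

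Wdfy1 had 1.70 and 2.13 in limma (adjusted p = 0.109 and 0.0887) and 2.02 to 2.37 with a library left out. Ngef had -2.03 and -2.09 in limma, -2.04 with a term for sex and -1.97 to -2.21 with a library left out. The GC decile gap of 0.69 became 0.022 with the GC offset, by construction, and 0.48 to 0.86 with a library left out.

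Of 128 named genes 109 kept their direction in all settings. Values turned sign with a library left out, lowest to highest, for Fth1 (-0.064 to 0.72), Hepacam (-0.0027 to 0.50), Cldn11 (-0.12 to 0.99), Cnp (-0.22 to 0.91), Igfbp2 (-0.072 to 0.45), Ramp3 (-0.14 to 1.86), Prkcd (-0.22 to 2.78), S100a8 (-0.18 to 1.95) and S100a9 (-0.24 to 1.55), each lowest without CAA stress 1. Trpv4 (-1.12 to 0.090) was highest without CAA stress 2, and without WT stress 1 Pf4 (-2.21 to 0.083), H2-Aa (-1.10 to 0.70) and Cd74 (-0.66 to 0.26) were highest and Dynlrb2 (-0.22 to 1.77) lowest. The sex term gave Cnp -0.024, Drd1 0.27, Tac1 0.024 and S100a8 -0.24. That term rests on the female libraries CAA stress 1 and WT mock 1, which also differed in tissue content from the other library of their group. The GC offset gave Aplp1 -0.0011, Jund -0.033, Igfbp2 -0.26 and Pkm -0.047. Of 49 list medians 16 kept their sign in all 17 settings, among them basement membrane (0.20 to 0.68), fibroblast and matrix (0.19 to 0.84), smooth muscle (-0.34 to -0.14) and the mitochondrial genome (-0.66 to -0.10). The cause was not tested.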

Other observations

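Genes with too few counts to test also set WT stress 1 apart. The neutrophil chemoattractants Cxcl1 and Cxcl2 had 0 and 4 counts and 0 and 0 counts in CAA stress 1 and 2 against 90 and 7 counts and 28 and 0 counts in WT stress 1 and 2. The interleukin gene Il1b had 5 and 3 counts in CAA stress against 22 and 0 counts in WT stress. Ngp, a granule protein of neutrophils, had 9 and 7 counts in CAA stress against 8 and 12 counts in WT stress, and Ctsg, cathepsin G, had 0 counts in all 8 libraries.

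MHC class II genes, which present antigen, had a median log2 fold change of -0.05 in the stressed brains and of 1.0 in mock. Without WT stress 1 the stress median was 0.67, with 6 of 7 higher. H2-Aa had 1.58 and 1.82 CPM in CAA stress against 3.67 and 1.05 CPM in WT stress, and 0.701 and 2.25 CPM in CAA mock against 0.269 and 0.674 CPM in WT mock. Its interaction did not pass in edgeR (adjusted p = 0.995).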
